A study of Homo sapiens and Mus musculus with 20 samples.

Results

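Oxidative phosphorylation subunit genes encode the proteins of mitochondrial respiratory complexes I to IV and of the ATP synthase, complex V. The 89 genes described here are the nuclear protein-coding genes of the GENCODE annotation whose symbols begin with NDUFA, NDUFB, NDUFC, NDUFS, NDUFV, UQCR, COX4 to COX8, ATP5F, ATP5M or ATP5P, together with SDHA to SDHD, of 20007 nuclear protein-coding genes in all; assembly factors were left out. By symbol they comprised 40 genes of complex I, 4 of complex II, 9 of complex III, 17 of complex IV and 19 of complex V. Chromatin accessibility at their promoters was read from ATAC-seq peak lists of SW480, a human colorectal adenocarcinoma line, in which Tn5 transposase inserts adapters into open DNA. One experiment compared 3 libraries of cells given 10 mM sodium propionate (NaPr) with 3 libraries at 0 mM, and the other compared 3 libraries given 1 mM sodium butyrate (NaBu) with 3 libraries at 0 mM of their own. All cells were grown in EMEM with 10% fetal bovine serum, treatment lasted 12 to 16 h, and each library was made by Omni-ATAC from 50000 viable cells. The labels do not say whether replicates came from separate cultures, so p-values measure the spread between these libraries, which may be technical, and SW480 is a single tumour line.

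The respiratory chain moves electrons from NADH through complex I, or from succinate through complex II, to ubiquinone, then through complex III and cytochrome c to complex IV, where oxygen is reduced. Complexes I, III and IV pump protons across the inner mitochondrial membrane and complex V uses the gradient to make ATP. Butyrate and propionate are short-chain fatty acids that colon epithelium can oxidise in mitochondria, and butyrate also inhibits histone deacetylases. Nuclear subunit genes are known for compact, GC-rich promoters bound by NRF-1, GABP of the ETS family, YY1 and SP1, with ERR factors and PGC-1 coactivators acting on many of them.

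Promoter sequence was taken from RefSeq (GRCh38.p14), which gave 70 of the 89 genes a stretch from 250 bases before to 50 bases after a transcription start. The stretches shown are those of SDHA (chr5:218070-218369, plus strand), NDUFB6 (chr9:32573110-32573409, minus strand), NDUFB4 (chr3:120596086-120596385, plus strand), NDUFA10 (chr2:240025293-240025592, minus strand), COX4I1 (chr16:85799445-85799744, plus strand) and ATP5PF (chr21:25734855-25735154, minus strand), because the accessibility results turn on these promoters. All of them lay wholly inside the accessible region measured for the gene in both experiments. Each is written 5′ to 3′ on the gene's strand, and capitals mark matches on either strand to the searched letters for NRF-1 (GCGCATGCG), ETS (CCGGAAG), YY1 (AAGATGGCG), SP1 (GGGCGG), CRE (TGACGTCA), ERR (CAAGGTCA) or the TATA box (TATAAA).
SDHA: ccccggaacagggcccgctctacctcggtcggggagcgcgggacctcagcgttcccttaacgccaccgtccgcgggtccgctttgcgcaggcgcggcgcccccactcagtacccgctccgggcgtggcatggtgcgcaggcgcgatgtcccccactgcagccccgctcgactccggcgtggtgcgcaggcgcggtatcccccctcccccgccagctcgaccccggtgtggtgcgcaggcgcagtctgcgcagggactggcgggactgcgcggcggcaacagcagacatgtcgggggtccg
NDUFB6: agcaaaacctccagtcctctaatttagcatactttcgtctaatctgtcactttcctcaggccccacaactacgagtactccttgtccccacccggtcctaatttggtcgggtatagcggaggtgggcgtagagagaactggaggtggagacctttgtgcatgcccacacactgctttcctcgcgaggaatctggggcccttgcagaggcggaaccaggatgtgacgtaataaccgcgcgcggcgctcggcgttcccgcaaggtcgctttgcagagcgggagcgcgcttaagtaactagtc
NDUFB4: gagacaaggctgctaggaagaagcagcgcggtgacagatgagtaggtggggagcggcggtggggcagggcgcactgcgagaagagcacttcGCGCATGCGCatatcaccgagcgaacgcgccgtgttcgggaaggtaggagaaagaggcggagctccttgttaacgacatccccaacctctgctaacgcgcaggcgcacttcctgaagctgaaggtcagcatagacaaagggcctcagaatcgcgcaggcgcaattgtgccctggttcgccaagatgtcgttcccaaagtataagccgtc
NDUFA10: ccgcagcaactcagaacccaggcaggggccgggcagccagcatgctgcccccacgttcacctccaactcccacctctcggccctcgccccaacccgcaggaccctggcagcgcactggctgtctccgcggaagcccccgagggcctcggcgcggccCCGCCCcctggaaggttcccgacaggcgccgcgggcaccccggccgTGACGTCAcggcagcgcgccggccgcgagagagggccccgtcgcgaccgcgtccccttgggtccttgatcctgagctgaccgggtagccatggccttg
COX4I1: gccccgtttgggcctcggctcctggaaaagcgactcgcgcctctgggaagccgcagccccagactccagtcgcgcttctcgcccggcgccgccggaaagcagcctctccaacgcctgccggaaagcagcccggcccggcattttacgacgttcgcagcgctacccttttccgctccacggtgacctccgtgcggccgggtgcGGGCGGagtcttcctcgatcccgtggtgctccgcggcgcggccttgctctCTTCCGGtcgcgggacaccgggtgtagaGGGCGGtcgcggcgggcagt
ATP5PF: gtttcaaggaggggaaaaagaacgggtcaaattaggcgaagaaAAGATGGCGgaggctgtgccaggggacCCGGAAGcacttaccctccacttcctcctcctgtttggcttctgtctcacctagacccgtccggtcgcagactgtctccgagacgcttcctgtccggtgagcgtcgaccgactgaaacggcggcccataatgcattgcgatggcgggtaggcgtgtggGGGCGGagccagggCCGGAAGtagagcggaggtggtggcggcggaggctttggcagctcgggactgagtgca

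The NDUFB4 stretch held an NRF-1 match 159 bases before the start, written on both strands over the same 10 bases. In NDUFA10 an SP1 match began 94 bases and a CRE match 48 bases before the start. The COX4I1 stretch had 2 SP1 matches and 1 ETS match, and ATP5PF had 1 YY1, 2 ETS and 1 SP1 match. None of the searched letters occurred in the SDHA and NDUFB6 stretches, which says only that these letters were not in these windows.

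Over the 70 promoters, matches to NRF-1, ETS and YY1 were found in larger shares than over all 15343 protein-coding promoters of the table. NRF-1 letters occurred in 10 of 70 (14.3%) against 2.80% of all, ETS letters in 21 (30.0%) against 14.8%, and YY1 letters in 9 (12.9%) against 2.98%. CRE letters were present in 5 (7.1%) against 2.76% and ERR letters in 3 (4.3%) against 0.86%. SP1 and TATA letters had like shares in both sets, 62.9% against 61.8% and 8.6% against 9.4%. The NRF-1 set was ATP5F1C, ATP5MC2, ATP5ME, COX6A1, NDUFA5, NDUFA8, NDUFB4, NDUFS6, NDUFS7 and SDHD. Median GC content was 61.2% in the subunit promoters and 63.7% in all. These shares describe the letters and were not tested.

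Another protein-coding gene started on the opposite strand within 1 kb of the canonical start for 26 of the 89 genes (29.2%), against 10.0% of all protein-coding genes. Among such neighbours were GABPA beside ATP5PF, MRPL47 beside NDUFB5, TIMM8B beside SDHD, EMC8 beside COX4I1 and CCDC127 beside SDHA. GABPA encodes a subunit of the ETS factor GABP, MRPL47 a mitochondrial ribosomal protein and TIMM8B an import chaperone of the intermembrane space. Accessibility at a promoter of this kind cannot be assigned to either gene alone.

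**Figure D1:**
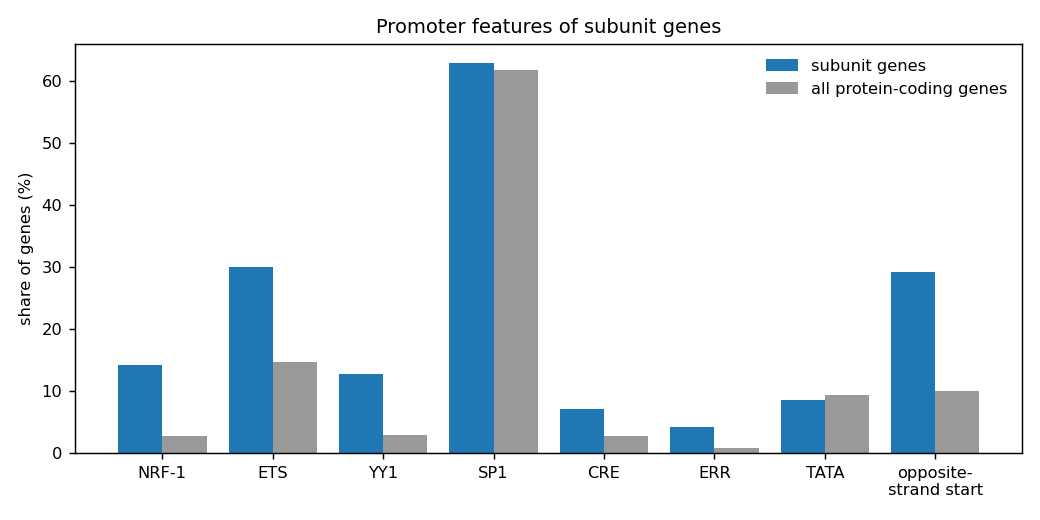
Share of genes (%) whose promoter holds the letters of each motif, in the 70 subunit genes with a RefSeq promoter (blue) and in 15343 protein-coding genes (grey); the last pair of bars gives the share of genes with an opposite-strand protein-coding start within 1 kb, over 89 and 20007 genes. The blue bars are taller for NRF-1, ETS, YY1, CRE, ERR and opposite-strand starts, and close to the grey ones for SP1 and TATA.

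Accessibility was expressed as a percentile rank, since each library's list had been cut near 300000 summits and gives no read total. Overlapping peak intervals of an experiment's 6 libraries were joined into regions, a region was tested where 2 or more of these libraries had a peak in it, and the rank is the percentage of tested regions with a lower −log10 p in that library, 0 where it had no peak. Each gene was represented by its lead promoter, the tested region within 1 kb of one of its transcript starts that had the highest mean rank over the 6 libraries. The lists held 299022 to 299463 summits in 108442 to 144398 intervals per library. Tags under a summit, recovered from the fold and p columns, had a median of 19 to 42 in NaPr libraries and of 48 to 73 in NaBu libraries, and the background fell between 0.936 and 2.35 tags in the former and between 2.11 and 3.03 in the latter. Promoters of the epithelial genes EPCAM, KRT8, KRT18, CDH1, CDX2, VIL1, CEACAM5 and LGR5 had a peak in all 12 libraries, CDX1 in none and KRT20 in 3. PTPRC, CD3E, CD79A, CDH5, COL3A1 and DCN, which mark leukocytes, endothelium and fibroblasts, had none, whereas CD14, PECAM1, COL1A1, COL1A2 and PDGFRA had a peak in all 12, LYZ in 11 and VWF in 5.

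Most subunit genes had strongly accessible promoters. A tested region was found for 84 genes in the NaPr experiment and for 83 in the NaBu experiment, with a peak in all 6 libraries for 83 and 82 of them. The median over genes of the mean rank was 91.6 in the NaPr experiment and 94.1 in the NaBu experiment, beside 90.6 and 89.9 for the lead promoters of all protein-coding genes. In the NaBu experiment 60 of 83 (72.3%) had a mean rank of 90 or more, against 49.7% of all, and in the NaPr experiment 50 of 84 (59.5%) against 52.5%. Lead regions had a median length of 1361 bp in the NaBu experiment, close to the 1380 bp of all protein-coding genes. The strongest summit lay within 250 bp of the canonical start for 65 of 77 genes whose lead region was within 1 kb of that start, at a median of 54 bp upstream.

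Complex V promoters stood highest. Their median mean rank was 97.5 in the NaPr and 97.1 in the NaBu experiment, whereas complexes I to IV had medians of 90.3 to 91.5 and 93.4 to 94.2. ATP5PF, coupling factor 6 of the ATP synthase stalk, had the highest mean rank in the NaBu experiment (99.8), and ATP5F1B, the catalytic beta subunit, had the highest in the NaPr experiment (99.7). NDUFA2, NDUFB2 and NDUFA11, accessory subunits of complex I, were above 99 in both. At the low end stood NDUFB8, an accessory subunit of complex I, at 62.9 in the NaPr and 59.8 in the NaBu experiment. NDUFS7, a core subunit that carries an iron-sulfur cluster, was at 72.8 and 73.3, and COX6C, a small subunit of complex IV, at 74.1 and 71.9. The region of NDUFB8 also lies within 1 kb of a transcript start of HIF1AN. Differences between genes in this order were not tested.

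Most tissue-restricted paralogues had no tested promoter region or a weaker one than the general form. COX4I2, COX6A2, COX7B2, COX8C and ATP5MGL had no peak near a start in any of the 12 libraries. At COX7A1, the isoform of heart and skeletal muscle, the lead region had a peak in untreated NaPr replicates 1 and 3, at ranks 37.2 and 32.4, and in no NaPr-treated library (limma adjusted p = 0.256). In the NaBu experiment it had a peak in 1 library and was not tested. UQCRHL, a near copy of UQCRH whose reads may be shared with it, had a mean rank of 57.0 in the NaPr and 14.6 in the NaBu experiment. COX6B2, known from testis, had a lead region at 90.6 in the NaPr experiment, beside COX6B1 at 90.5. That region was not within 1 kb of the canonical start of COX6B2. Other regions nearer that start had mean ranks of 81.5 and 33.6. In the NaBu experiment the lead region of COX6B2, 2935 bp long, reached the canonical start and stood at 82.3, below COX6B1 at 94.0. NDUFA4L2, a paralogue of NDUFA4 that responds to hypoxia, stood at 62.5 in the NaPr and 70.8 in the NaBu experiment. The general forms COX6A1, COX6B1, COX7A2 and COX8A all ranked between 88.3 and 97.9 in the 2 experiments. UQCRH stood at 77.8 in the NaPr and 90.5 in the NaBu experiment.

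NaBu lowered the rank of some subunit promoters by a wide margin and raised that of 1. At an adjusted p under 0.05 (limma over all 127305 tested regions, Benjamini-Hochberg), 19 of 83 lead promoters (22.9%) were lower after NaBu and 1 (1.2%) was higher. Among lead promoters of all 15750 protein-coding genes tested, 22.7% were lower and 8.56% higher, and among all tested regions 17.3% were lower and 19.7% higher. The share of lower subunit promoters was close to that of promoters at large, and the share of higher ones was below it. Subunit promoters ranked higher to begin with. At a mean rank of 90 or more, 18.3% of 60 subunit promoters were lower and 1.7% higher, beside 13.2% and 7.4% of 7824 protein-coding lead promoters. These differences in share were not tested. The median change was −0.82 rank points for the subunit genes and −0.74 for all protein-coding genes. Of the 83, 61 were lower and 22 higher by any size.

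SDHA, the flavoprotein that oxidises succinate in complex II, had the smallest p-value of the set. Its lead promoter (chr5:217463-219291) ranked 96.2, 98.2 and 98.4 in the untreated libraries and 91.0, 90.1 and 90.03 in the NaBu libraries, so that the groups were far apart and the treated ones nearly equal. The change was −7.24 ± 0.72 (SE; limma adjusted p = 0.000605). In recovered tags scaled to the library median, the treated level was 0.47 of the untreated one. The deposited fold enrichments were 12.2, 14.3 and 15.5 untreated and 11.6, 11.9 and 12.04 treated, and ranked by fold the change did not pass the test. The region held several summits, and the fall was uneven among them. At the summit about 110 bp before the start, the tags over background were 127 ± 19.3 (SD, n = 3) without and 79.1 ± 6.29 with NaBu, a ratio of 0.62. About 880 bp after the start they were 170 ± 9.66 and 66.5 ± 9.44, a ratio of 0.39. The strongest summit of the region was the downstream one in the 3 untreated libraries and the upstream one in the 3 treated libraries. These summits were picked after they were seen, and the difference between them was not tested.

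COX4I1, the general isoform of subunit 4 of cytochrome c oxidase, ranked 88.6, 88.6 and 85.2 without NaBu and 80.0, 69.3 and 71.9 with it. The highest treated library was below the lowest untreated one, with a change of −13.8 ± 2.72 (SE; limma adjusted p = 0.0068), and tags scaled to the median fell to 0.42 of the untreated level. Its fold enrichments overlapped, at 15.3, 15.8 and 13.7 untreated and 16.1, 13.4 and 13.05 treated, and ranked by fold the change did not pass the test. This region also lies within 1 kb of a transcript start of EMC8. NDUFA10, an accessory subunit of complex I, had ranks of 92.9, 88.2 and 90.6 against 84.4, 78.1 and 72.7 and a change of −12.1 ± 2.78 (limma adjusted p = 0.0119). ATP5ME, subunit e of the ATP synthase, had ranks of 94.5, 91.7 and 89.9 against 86.3, 67.7 and 78.4. Its treated libraries were widely spread but all lay below the untreated ones (change −14.5, SE 4.12, limma adjusted p = 0.027). The ATP5ME call held in 2 of 6 fits that left out a library and not by fold rank, and the region also lies within 1 kb of a transcript start of MYL5.

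COX5A, a small subunit next to COX4I1 in the enzyme, had ranks of 98.5, 97.8 and 98.3 without NaBu and of 96.9, 87.3 and 82.8 with it. NaBu replicate 1 stood much nearer to the untreated libraries than the other two did, and the change was −9.19 ± 3.03 (limma adjusted p = 0.0472). COX6C, also of complex IV, had ranks of 81.7, 80.1 and 71.3 against 60.0, 68.4 and 70.1. Here untreated replicate 3 lay just above the highest treated library (change −11.5, SE 3.78, limma adjusted p = 0.0462). COX5A and COX6C were each called in 1 of 6 fits that left out a library and in neither case by fold rank, and COX6C was also not called with the replicate block. NDUFA4L2 had ranks of 77.7, 79.0 and 77.6 against 53.1, 69.6 and 68.0, a change of −14.6 ± 4.31 (limma adjusted p = 0.0319). Its lead region was not within 1 kb of the canonical start, and 3 of 6 other tested regions near its starts were lower as well. Of these, chr12:57237041-57237349 had no peak in any treated library and passed the filter through untreated libraries alone.

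The remaining 12 genes called lower moved by −6.26 to −1.05 rank points. NDUFS5, NDUFS4, NDUFAB1, NDUFA4, NDUFB6, NDUFC1, NDUFS3 and NDUFS6 are named with complex I. Among them are NDUFAB1, the mitochondrial acyl carrier protein, and NDUFA4, which is found with complex IV. The lead region of NDUFS6 is also that of MRPL36, and its strongest summit lay at a median of −1433.5 bp from the NDUFS6 start. That fall cannot be assigned to NDUFS6 alone. COX6B1, UQCR10 and ATP5MF belong to complexes IV, III and V, and the readthrough gene ATP5MF-PTCD1 shares the region of ATP5MF, so that the 19 genes stand for 18 regions. NDUFB6 ranked 97.2, 98.0 and 97.8 against 94.9, 95.8 and 95.3 (change −2.33, SE 0.46, limma adjusted p = 0.0067). Its strongest summit was about 730 bp after the start in all 6 libraries, with 132 ± 2.09 tags over background untreated and 87.9 ± 2.65 treated (SD, n = 3). NDUFS3, a core subunit, ranked 99.3, 99.2 and 99.0 against 97.3, 97.5 and 97.4 at the start it shares with KBTBD4 (change −1.78, SE 0.34, limma adjusted p = 0.00604). Ranks end at 100, and in tags scaled to the median NDUFB6 and NDUFS3 fell to 0.67 and 0.63 of the untreated level. Neither was called by fold rank, and the fold enrichments of NDUFS3 were 25.12, 24.1 and 23.5 untreated and 25.14, 25.05 and 25.07 treated, which is no fall. The lead region of NDUFC1 (chr4:139294912-139296528) is not at its canonical start. Of 2 other regions of NDUFC1, chr4:139300600-139302389 changed by 1.35 (limma adjusted p = 0.152) and chr4:139302491-139302622 by −25.9 (limma adjusted p = 0.0074).

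**Figure D2:**
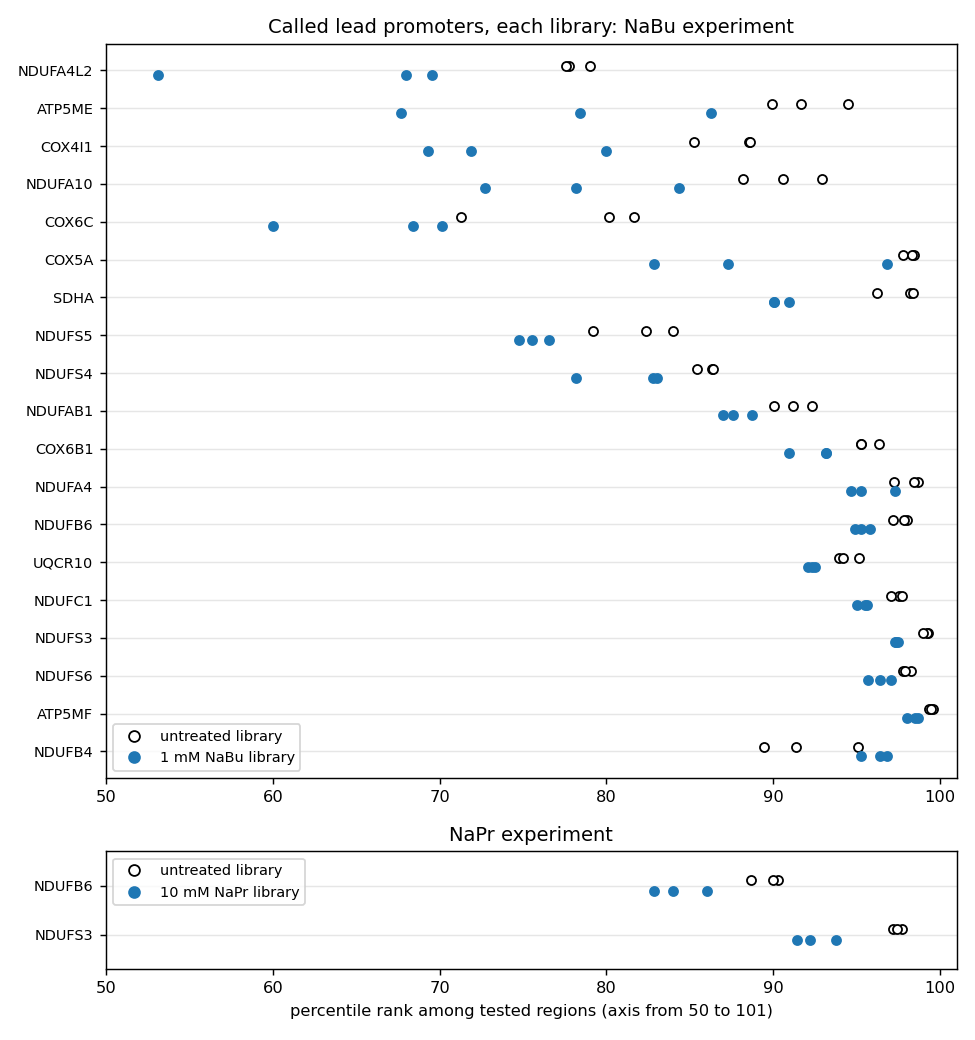
Percentile rank of each library at the lead promoters called after NaBu (top, 19 regions) and after NaPr (bottom, 2 regions); open circles are untreated libraries, filled circles treated ones, and the axis starts at 50. In the top panel all filled circles lie left of the open ones except at NDUFA4, where 1 treated library (97.28) falls just inside the untreated range (from 97.21), and at NDUFB4, where they lie to the right.

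NDUFB4, an accessory subunit in the membrane arm of complex I, was the gene called higher, a call that held in 1 of 6 fits that left out a library and not by fold rank. It ranked 89.4, 91.4 and 95.1 untreated and 95.3, 96.4 and 96.8 with NaBu, a change of 4.19 ± 1.33 (limma adjusted p = 0.041). Untreated replicate 3 lay just below the treated range, and scaled tags were 1.21 times the untreated level. ATP5MC1, ATP5PF, COX7A2L and NDUFA11 also had 3 treated ranks above 3 untreated ones without passing the test; all stood above 98 in every library.

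Among 7 other subunits of complexes I to V, calls depended on the scale. By rank, NDUFV1, which binds NADH, changed by −1.31 (limma adjusted p = 0.0578), NDUFS1 by −0.81 and SDHB, the iron-sulfur subunit of complex II, by −0.09. UQCRC1 and UQCRFS1, the core and Rieske proteins of complex III, changed by −0.38 and −1.82. COX5B had −0.30 and ATP5F1B −0.24. None of these 7 passed the test by rank (limma, adjusted p from 0.0578 to 0.96). In tags scaled to the median, all but SDHB were lower, NDUFV1 at 0.73 of the untreated level (limma adjusted p = 0.0004) and UQCRFS1 at 0.73 (0.0107), while NDUFS1, UQCRC1, COX5B and ATP5F1B stood at 0.82 to 0.83 (limma adjusted p from 0.0121 to 0.0212). The lead region of ATP5F1A, the alpha subunit, lay within 1 kb of a start of HAUS1 and not of its own canonical start. The region at the canonical start of ATP5F1A changed by 2.1 ± 1.40 (limma adjusted p = 0.254).

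Complexes were assigned by symbol. NaBu lowered 10 and raised 1 of 40 promoters of complex I and lowered 1 of 4 of complex II. It lowered 1 of 9 of complex III, 4 of 12 of complex IV and 3 of 18 of complex V. The 10 include NDUFA4, found with complex IV, its paralogue NDUFA4L2, and NDUFS6, whose lead region is also that of MRPL36. The 25% lower in complex I stands beside 22.7% of all protein-coding lead promoters, and the 2.5% higher beside 8.56%. Of the 7 complex I core genes, NDUFS3 was the one called. The median change ran from −2.13 in complex II to −0.19 in complex IV. In 33 of 83 genes (39.8%) all 3 treated ranks were below all 3 untreated ones, against 30.9% of all protein-coding lead promoters, and in 5 (6.0%) they were above, against 14.9%. NDUFA4 was the one called gene whose groups overlapped.

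**Figure D3:**
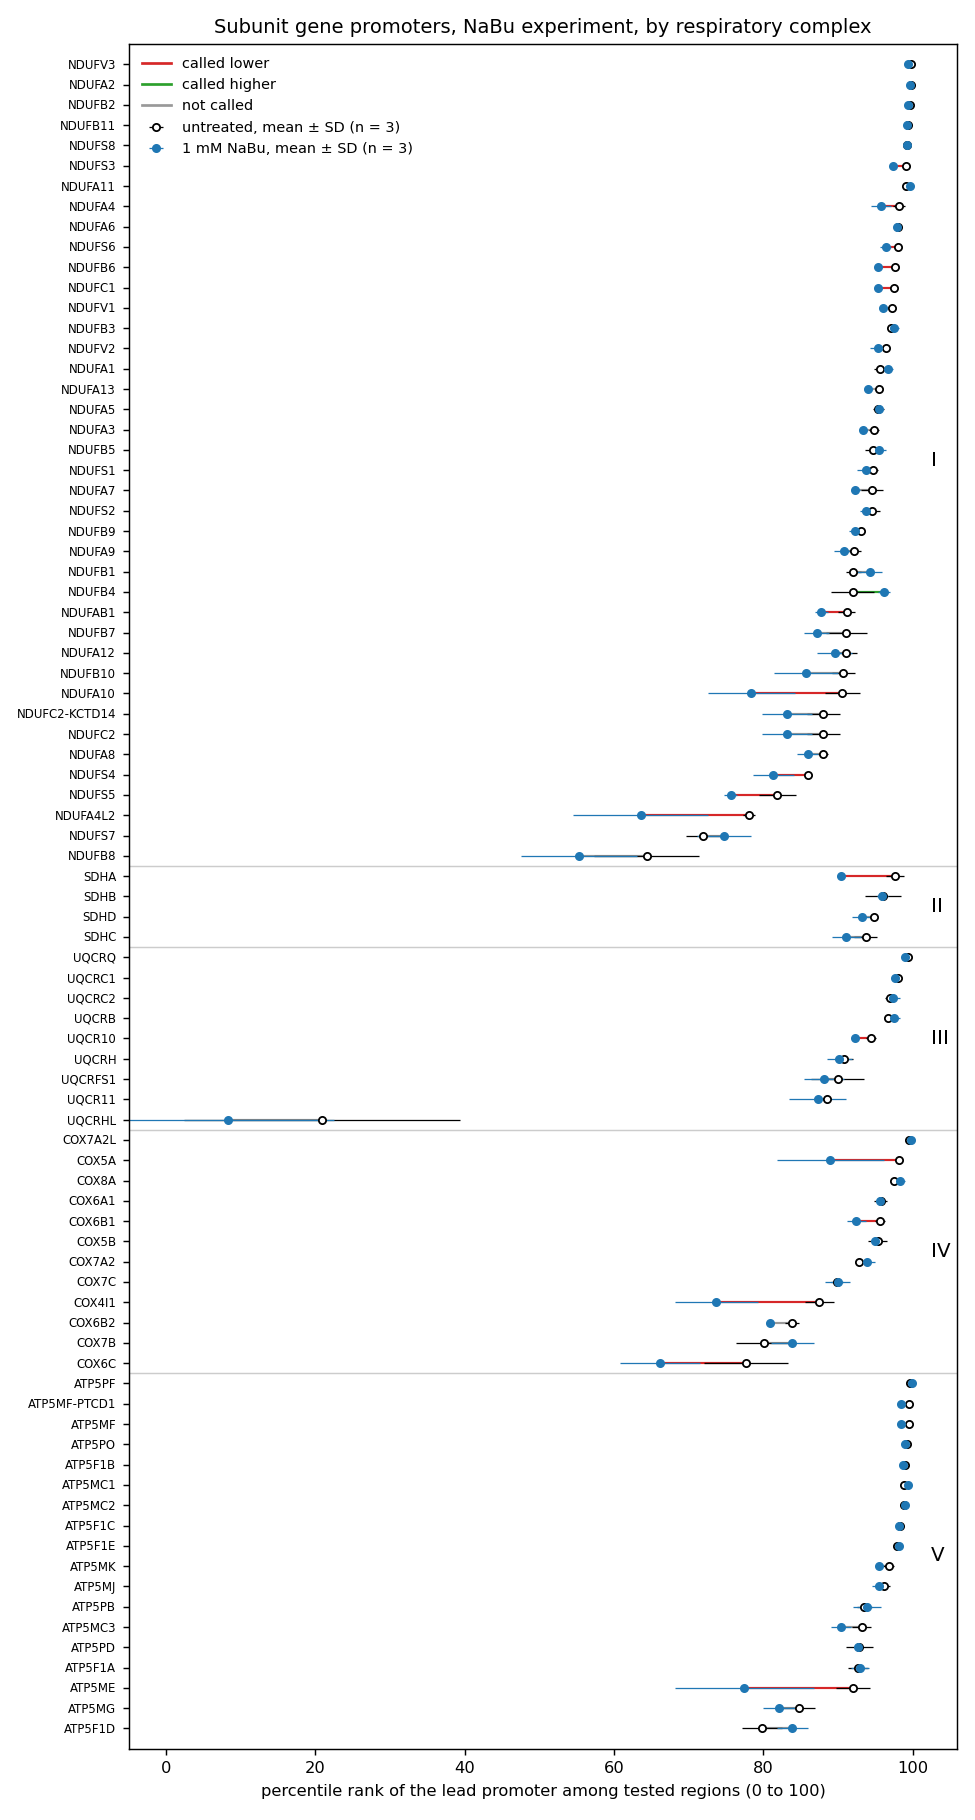
Mean percentile rank of the lead promoter of each of 83 subunit genes, grouped by complex (I to V) and sorted within it, in untreated (open circles) and NaBu-treated (filled circles) SW480; bars are the SD over 3 libraries, and line colour marks the promoters called lower, higher or not. Most pairs lie above 90 and close together, and the long lines to the left belong to NDUFA4L2, ATP5ME, COX4I1, NDUFA10, COX6C, COX5A and SDHA, which were called lower, and to UQCRHL and NDUFB8, which were not called.

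Counts of calls depended on the variance model, on single libraries and on the scale. Without a variance trend 2 of the 19 lower promoters were called, SDHA and COX4I1, and none was higher. Without untreated replicate 1 the lower promoters numbered 6, without untreated replicate 3 or treated replicate 2 they numbered 12, and without treated replicate 3 they numbered 10. SDHA, COX4I1, NDUFB6, NDUFC1, NDUFS3 and UQCR10 were called lower whichever of the 6 libraries was left out. None of these 6 was called when ranked by fold enrichment, by which 5 subunit promoters were lower and 7 higher. COX6B1 and NDUFA10 were the only 2 of the 20 genes called by −log10 p that were also called by fold.

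On recovered tags, which have no ceiling, more promoters of every kind were lower. Scaled to the median over regions, tags after NaBu were lower at 54 of 82 subunit promoters (65.9%) and higher at 1, NDUFB4, beside 53.7% and 6.21% of all protein-coding lead promoters. The median log2 difference was −0.33 for the subunit genes, −0.28 for all protein-coding lead promoters and −0.00 over all regions. All 20 genes called by rank were also called by tags in the same direction. Tags were recovered from fold and from the same p that was ranked, so these scales are not independent. ATP5F1A changed direction between the scales, with 0.31 rank points and a log2 tag difference of −0.25 (limma adjusted p = 0.0457) at its lead region.

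**Figure D4:**
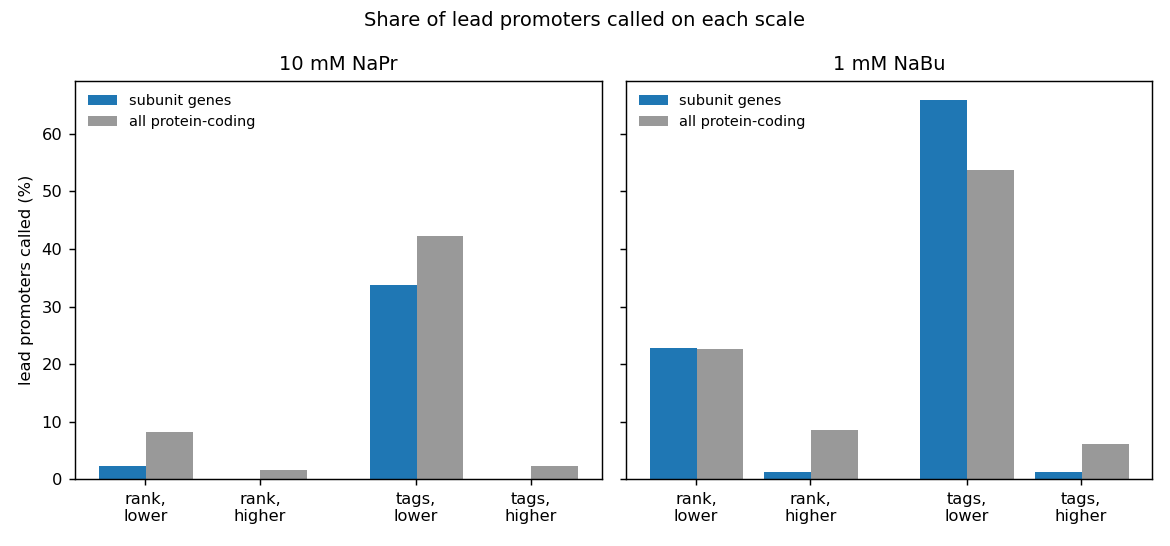
Share of lead promoters (%) called lower or higher at an adjusted p under 0.05, by rank and by tags scaled to the library median, for subunit genes (blue) and all protein-coding genes (grey), after NaPr (left) and NaBu (right). After NaBu the lower shares are 22.9% and 22.7% by rank and 65.9% and 53.7% by tags.

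NaPr changed few subunit promoters. Of 84 lead promoters tested, 2 (2.4%) were lower and none was higher (limma over all 129351 tested regions, adjusted p under 0.05), whereas 8.27% of 16060 protein-coding lead promoters were lower and 1.71% higher, and 3.95% and 4.49% of all tested regions. The median change was −0.25 rank points, against −0.67 for all protein-coding genes, with 46 genes lower and 38 higher by any size. All 3 treated ranks were below all 3 untreated ones in 16 genes (19.0%) and above in 2 (2.4%), COX6B2 and SDHD, beside 24.5% and 8.29% of all protein-coding genes.

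NDUFB6 ranked 90.3, 90.01 and 88.7 untreated and 84.0, 86.0 and 82.8 with NaPr, a change of −5.38 ± 1.24 (limma adjusted p = 0.0315). The groups did not overlap. Its strongest summit lay near the start in 5 of these 6 libraries and at the downstream position in NaPr replicate 3. The call under the name of NDUFS3 belonged to a region at an alternative start (chr11:47564947-47566483). That region, also within 1 kb of starts of CELF1 and PTPMT1, ranked 97.7, 97.2 and 97.4 untreated and 91.4, 92.2 and 93.8 with NaPr. The change was −4.98 (SE 0.76, limma adjusted p = 0.00922). The region at the same place was lower after NaBu as well (change −10.6, SE 1.64, limma adjusted p = 0.00268). At the canonical start of NDUFS3 the change was −2.21 ± 1.03 (limma adjusted p = 0.216). Neither call remained with the replicate number as a block, when the variance was not fitted as a trend on the mean rank or when ranks were taken by fold enrichment, and without any 1 library other than untreated replicate 1 no subunit promoter was called.

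By tags scaled to the median, 28 of 83 subunit promoters (33.7%) were lower after NaPr and none higher, beside 42.3% and 2.37% of all protein-coding lead promoters; scaled to the background, none was called in either direction. The median log2 difference over all regions was 0.20 on the background scale and −0.05 on the median scale. Background tags were 0.936, 2.35 and 2.02 in the untreated and 0.938, 1.27 and 1.77 in the NaPr libraries, and their part in these counts was not tested.

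**Figure D5:**
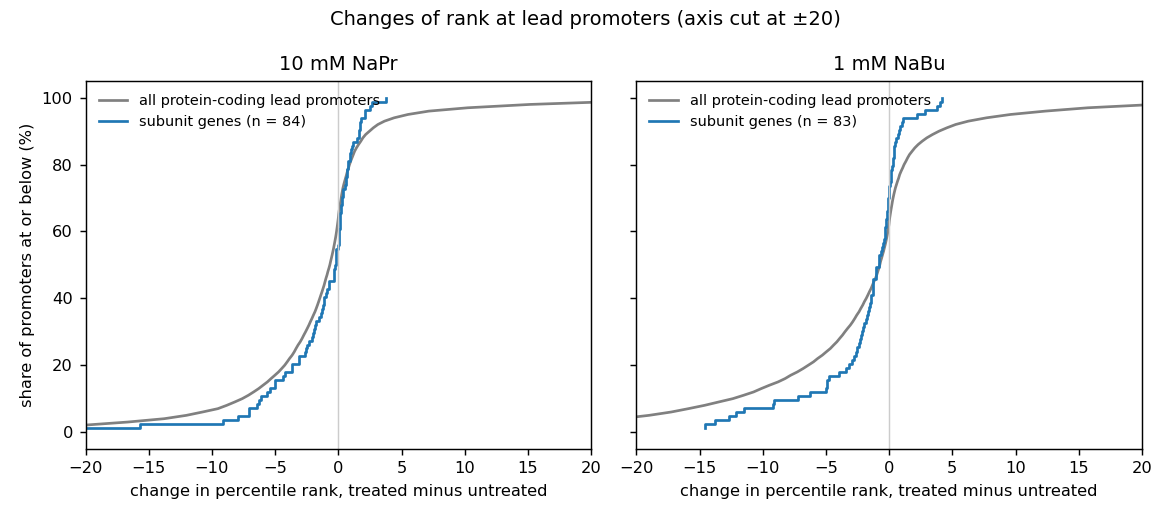
Cumulative share (%) of lead promoters against the change in percentile rank, treated minus untreated, for subunit genes (blue) and all protein-coding genes (grey), after NaPr (left, 84 genes) and NaBu (right, 83 genes). No subunit gene rose by more than 3.78 (NaPr) or 4.19 (NaBu) rank points, while the grey curves run on past the axis limits on both sides.

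Set side by side, with their different doses and separate untreated libraries, the 2 experiments had 83 genes in common, for 82 of which the lead regions overlapped. NDUFS3 was the exception. Ranks were lower by any size in both for 36 genes and higher in both for 13. Among overlapping lead regions, that of NDUFB6 was called in both, and the region at the alternative start of NDUFS3 was also called in both. The strongest summit of the NDUFB6 region differed, at a median of −78 bp from the start in the NaPr and 730.5 bp in the NaBu experiment. Near −75 bp, tags over background treated over untreated had ratios of 0.74 (NaPr) and 0.70 (NaBu). Near 730 bp the ratios were 0.91 and 0.66. These summits were picked after they were seen, and the ratios were not tested. SDHA changed by −2.59 ± 0.91 after 10 mM NaPr (limma adjusted p = 0.106) and by −7.24 ± 0.72 after 1 mM NaBu. COX4I1 moved by 0.59 ± 1.86 and −13.8 ± 2.72, COX5A by 0.14 ± 0.86 and −9.19 ± 3.03, and NDUFB4 by −1.51 ± 1.30 and 4.19 ± 1.33. Of the 19 genes lower after NaBu, 15 had a negative difference of any size after NaPr. No test of the difference between the compounds was made, because dose and experiment differ together.

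Other regions near the starts of subunit genes were tested besides the lead promoters. After NaBu, 19 of 47 such regions were lower and 4 higher, beside 31.4% and 11.9% of other regions within 1 kb of protein-coding starts, and 11 of the 19 had no peak in any treated library. Lower ones lay beside ATP5PO, COX6B1, NDUFV2 and ATP5F1C, and higher ones beside NDUFA12, NDUFAB1, NDUFV2 and SDHB. After NaPr, 1 of 34 was lower and none higher, beside 7.08% and 3.12%. That region, beside ATP5ME (chr4:673836-673978), had no peak in any NaPr-treated library and passed the filter in the same way (change −62.7, SE 10.2). The region at the same place changed by −55.2 (SE 7.34) after NaBu, also without a peak in any treated library. These examples were chosen after their values were seen.

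Genes that work with the subunits were counted in the same way. After NaBu, 22.7% of all protein-coding lead promoters were lower and 8.56% higher, and the lists stand beside these shares. Of 52 assembly factor promoters 9 (17.3%) were lower and none higher, with ranks falling from 85.5 to 71.5 at SURF1, a complex IV assembly factor, and from 95.3 to 90.3 at SCO2, which delivers copper to the same complex. Mitochondrial ribosomal protein promoters were lower in 22 of 78 (28.2%) and higher in 2, MRPL44 and MRPL54. Among the lower ones was MRPL36, whose lead region is that of NDUFS6 and is counted in both sets. Glycolysis genes were lower in 6 of 19 (31.6%), among them HK1, TPI1 and LDHB, and PFKL was higher, at a mean rank of 54.4 without and 71.0 with NaBu. Of 21 electron carrier and tricarboxylic acid cycle genes, IDH3B was lower and IDH3G higher, both subunits of the NAD-dependent isocitrate dehydrogenase. Among 16 regulators, PPARGC1A rose from a mean rank of 83.2 to 91.7 (limma adjusted p = 0.00219), ESRRA from 93.5 to 98.6 and MTERF1 from 95.7 to 97.9, and MTERF4 fell from 92.9 to 87.8. PPARGC1A encodes the coactivator PGC-1α and ESRRA the nuclear receptor ERRα, both known to act on subunit genes. The median change of these lists lay between −0.91 for ribosomal proteins and 0.06 for regulators.

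After NaPr, 8.27% of all protein-coding lead promoters were lower and 1.71% higher. Assembly factors had 3 lower of 52 (5.8%), COX15, COX20 and SCO2, and ribosomal proteins 4 lower of 78 (5.1%). IDH3A was lower among 21 genes of the electron carriers and tricarboxylic acid cycle, no regulator was called, and in glycolysis PFKL was lower (from 91.6 to 85.4 at the lead promoter of this experiment) and PFKM higher. Median changes ran from −0.67 for glycolysis to −0.06 for regulators.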

How the data were processed

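ATAC-seq peak lists of 12 SW480 libraries were used; those of the mouse line CT26 were not. Per the labels' processing notes, reads were handled with bcl2fastq 2.17.1, cutadapt 1.9.1, Bowtie2 2.3.1 and MACS2 2.1.0 against hg38. The authors deposited 1 list per library, in which each summit carries a fold enrichment (a ratio), a −log10 p, a −log10 q and a summit position; reads were not used here, so the DiffBind analysis of the study was not run. No peak lay past a chromosome end of the hg38 reference or on a name missing from it.

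Intervals of an experiment's 6 libraries overlapping by 1 bp or more were merged, scored by the highest −log10 p, and ranked within each library over the regions in which 2 or more libraries had a peak. Ranks were compared with limma 3.58.1 (lmFit and eBayes with trend, R 4.3.3, 3 against 3 libraries, Benjamini-Hochberg over all tested regions, threshold 0.05). Promoters were regions within 1 kb of a transcript start of a protein-coding gene (GENCODE release 44). Tags were recovered from fold and p, taking fold as (tags + 1)/(expected + 1) and p as the Poisson tail. They were compared as log2 values, without a pseudocount, over regions with a peak in every library. The scripts were tested on simulated data. Whether the replicate numbers pair the libraries is not known, and no block was used in the main fit. Deviations from group means correlated at 0.0069 to 0.0435 for same-numbered libraries and at −0.0320 to 0.0186 for the others. These correlations cannot show whether the libraries were paired.

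The members and lists were chosen with earlier results of these data known. Genes named whatever their values are NDUFS1, NDUFV1, SDHA, SDHB, UQCRC1, UQCRFS1, COX4I1, COX5B, ATP5F1A and ATP5F1B, and the tissue-restricted paralogues with their general forms. Up to 6 genes called with the largest change in each direction, and every gene without a tested region, are also named. Others are examples. Alternatives were fold in place of −log10 p, ranks among promoters, their logit, list and overlap settings, filters, windows, lead choice, variance trend, 2 tag scalings, the replicate block and leaving out each library. Read depth per library is not recorded in the lists, so its limits are known through tags only.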

Additional observations from a re-analysis of the deposited data

How the results depend on the processing

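After NaBu, the number of lower subunit promoters stayed within 1.5 times of 19 under 10 of 15 settings that kept all libraries, and the lower and higher ones together numbered 20. The exceptions were ranking by fold enrichment (5 lower, 12 in all), windows around summits (12 lower), no variance trend (2 lower, 2 in all), tags over background (56 lower, 57 in all), tags over the median (54 lower, 55 in all) and no filter (13 in all). Leaving out 1 library gave 6 to 16 lower and 6 to 16 in all. After NaPr the count was 2, all lower. It became 0 by fold enrichment, without the variance trend and by tags over background, 28 by tags over the median, 6 (5 lower) with a peak required in all libraries, 4 with the top 50000 intervals, and 1 without a filter and at canonical starts; 1 was lower when ranked among promoters or in summit windows. Leaving out 1 library gave 0 to 2. With the replicate block, 17 promoters (16 lower) were called after NaBu and 0 after NaPr. Whether the numbers pair the libraries is not known. ATP5F1A after NaBu reversed by tags over background (−0.27) and over the median (−0.25). The cause was not tested in any of these. Precision is limited by the tags under a summit, at a median of 19 to 42 in NaPr and 48 to 73 in NaBu libraries.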

Other observations

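Lead regions of genes with NRF-1 letters had a median change of −0.05 rank points after NaBu over 10 genes, 2 of them lower and 1 higher. Over 57 genes without them the median was −0.66, with 11 lower. With ETS letters the medians were −0.81 over 21 genes and −0.38 over 46 without. Genes without SP1 letters had −1.31 over 23, and those with them −0.37 over 44. Letters were sought around the canonical start, whereas the lead region lies away from it for some genes, such as ATP5F1A and NDUFC1. These medians are descriptions and no difference between them was tested.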
